A study of Mus musculus with 9 samples.

Results

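The resting transcriptome of the adult mouse heart was described from the 3 libraries of non-transgenic FVB/N mice, out of 9 heart libraries in the series. These libraries were chosen by their label alone, and no measured value entered the choice. The study set hearts of mice labelled Tg-RKIP and Tg-GRK2 beside these controls, and the libraries of the transgenic mice were not used here. The FVB/N hearts came from male mice of 8 months that carried no transgene, were housed in small groups on a standard diet and are given no treatment in the labels. Each library is labelled as a heart with a number of its own, and the labels name no chamber. Hearts were pulverised before RNA was extracted, so atria, ventricles, vessels and blood entered the same sample. In such bulk RNA, fewer cells of a type and less RNA per cell cannot be told apart.

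The FVB libraries held 27330788, 30933785 and 26842772 reads of 50 bases on 127558 transcripts, listed under 41710 gene names. Levels are given as TPM, the reads of a transcript divided by its length and scaled so that each library sums to 1000000. TPM was summed over the transcripts of each gene, and a mean ± s.d. of TPM is that of the 3 hearts. Between 12477 and 12506 genes reached 1 TPM in a library. The mean of the hearts was at 1 TPM or more for 12488 genes, of which 11831 had a transcript listed as protein coding. At this depth 3 reads, taken as the limit that a count of 0 allows, correspond to between 0.097 and 0.112 RPM, that is reads scaled to a library total of 1000000. These limits cover counting error only.

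Heart muscle cells contract without pause, and most of their ATP comes from mitochondrial respiration fed mainly by fatty acids. Force is made in the sarcomere, where thick filaments of myosin pull on thin filaments of actin that troponin and tropomyosin switch on when calcium is released. Calcium leaves the sarcoplasmic reticulum through the ryanodine receptor and is pumped back by the SERCA pump, which phospholamban restrains. Many of these proteins come in families of paralogs, of which heart, skeletal muscle and other tissues use different members. The mitochondrial genome supplies a small set of respiratory chain subunits with the ribosomal and transfer RNAs to translate them, and all other subunits are encoded in the nucleus.

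Reads of 50 bases had to tell these paralogs apart, so the coding sequences of the pairs on which the description turns are shown first. They are taken from the GENCODE M21 transcripts, numbered from the A of the start codon, and capitals mark the bases at which the paralogs differ. The window of 60 bases with the most differences is given for each pair. Myh6 and Myh7, the alpha and beta myosin heavy chains, lie side by side on the minus strand, at chr14:55179378-55204384 and chr14:55208141-55232083 (GRCm39). They shared 91.6% of 5805 aligned coding bases, and this window, which starts at base 3226 of Myh6, held 27 differences.
Myh6: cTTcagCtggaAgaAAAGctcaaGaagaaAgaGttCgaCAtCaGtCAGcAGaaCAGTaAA
Myh7: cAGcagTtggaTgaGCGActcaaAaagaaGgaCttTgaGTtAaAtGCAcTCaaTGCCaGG
Actc1 and Acta1, the cardiac and skeletal alpha-actins, shared 86.2% of 1134 bases, and no stretch of 50 bases was identical.
Actc1: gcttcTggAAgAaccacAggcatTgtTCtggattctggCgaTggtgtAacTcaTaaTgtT
Acta1: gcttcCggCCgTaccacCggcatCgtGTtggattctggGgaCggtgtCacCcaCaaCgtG
Slc25a4 and Slc25a5, the adenine nucleotide translocases that exchange mitochondrial ATP for cytosolic ADP, shared 77.5% of 897 bases.
Slc25a4: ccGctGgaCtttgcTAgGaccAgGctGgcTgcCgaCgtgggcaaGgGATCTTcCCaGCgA
Slc25a5: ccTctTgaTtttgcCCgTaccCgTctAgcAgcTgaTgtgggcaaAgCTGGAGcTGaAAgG
Atp5g3 and Atp5g1 encode the same mature subunit c of ATP synthase behind different import sequences, and this window held 33 differences.
Atp5g3: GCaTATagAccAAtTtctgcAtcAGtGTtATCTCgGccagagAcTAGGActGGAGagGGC
Atp5g1: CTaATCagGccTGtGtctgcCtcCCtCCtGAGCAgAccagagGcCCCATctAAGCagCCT

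Other pairs could not be separated by reads of this length over most of their coding sequence. Hba-a1 and Hba-a2, the adult alpha-globins, differed at 1 of 429 coding bases, which lies at base 381, the end of the window shown.
Hba-a1: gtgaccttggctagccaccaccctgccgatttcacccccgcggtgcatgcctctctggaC
Hba-a2: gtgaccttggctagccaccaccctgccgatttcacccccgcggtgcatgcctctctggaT
The coding sequence of Cycs, cytochrome c, was identical over all 318 bases to that of Gm10053 at chr19:24853050-24853995, and the first 60 bases are shown because the deposited levels of this pair were far apart.
Cycs: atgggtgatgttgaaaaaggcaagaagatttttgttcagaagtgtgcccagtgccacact
Gm10053: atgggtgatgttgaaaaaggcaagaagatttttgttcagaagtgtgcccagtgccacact
The coding sequence of Rpl10, a protein of the large ribosomal subunit, was likewise identical over 645 bases to that of Rpl10-ps3 on chromosome 9.
Rpl10: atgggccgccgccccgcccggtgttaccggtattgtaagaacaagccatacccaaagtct
Rpl10-ps3: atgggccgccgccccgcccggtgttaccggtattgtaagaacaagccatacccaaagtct
Within Myh6 and Myh7 the longest identical run was 245 bases, from base 4246 of Myh6, and 1373 stretches of 50 bases were common to both.
Myh6 and Myh7: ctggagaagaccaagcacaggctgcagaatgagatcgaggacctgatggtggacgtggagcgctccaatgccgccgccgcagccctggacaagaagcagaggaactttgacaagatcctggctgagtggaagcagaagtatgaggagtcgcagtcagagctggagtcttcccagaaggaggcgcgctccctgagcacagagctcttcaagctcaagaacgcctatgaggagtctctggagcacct

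The most abundant genes by TPM in these libraries were mitochondrially encoded. The ranking covers the RNA that was sequenced and not the total RNA of the heart. In it the 18S ribosomal RNA Rn18s held 0.198% of TPM. Of the 10 most abundant genes 9 were on the mitochondrial genome, and of the 30 most abundant 16 were. The catalytic subunit of cytochrome c oxidase, mt-Co1, was the highest gene of all 3 libraries at 63927, 61932 and 62920 TPM (mean 62926 ± 998 s.d., n = 3). The ATP synthase subunit mt-Atp6 followed at 60968 ± 1866 TPM and was below mt-Co1 in each library, although its range of 58951 to 62633 TPM ran into that of mt-Co1. The other mitochondrially encoded oxidase subunits came next, with mt-Co3 at 46118 ± 590 TPM. The level of mt-Co2 was 41469.9, 47137 and 42500.1 TPM, so library 2 stood above the other two by more than they stood apart, and in that library mt-Co2 passed mt-Co3. The cytochrome b gene mt-Cytb had 27181 ± 251 TPM and the complex I subunits mt-Nd4, mt-Nd1 and mt-Nd2 had 22543 ± 663, 21236 ± 289 and 15876 ± 333 TPM. The serine transfer RNA mt-Ts1 took the eighth place with 18487 ± 1341 TPM, a level that rested on 23826 to 24167 reads over 69 bases, against 295672 to 333620 reads over 1038 bases for mt-Nd2 just below it. This gene lies on the minus strand and shares its last 3 bases with the end of mt-Co1, and the sources used here do not say whether strand was used in counting.

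Together the 37 genes of the mitochondrial genome made up 38.3%, 37.8% and 38.2% of TPM (38.1% ± 0.237) and 23.1% ± 0.158 of reads. The 13 protein-coding genes held 34.2% ± 0.129 of TPM, the 22 transfer RNAs 2.91% ± 0.109 and the 2 ribosomal RNAs 0.983% ± 0.0121. Among the transfer RNAs only mt-Ts1, mt-Te, mt-Tc and mt-Ty exceeded 1000 TPM, with mt-Te at 5518 ± 289 TPM on the minus strand next to mt-Nd6. At the other end mt-Tf, the phenylalanine transfer RNA, was listed with 1, 2 and 0 reads. The 2 gene pairs that share a transcript did not have equal levels. TPM of mt-Atp6 was 11.9, 8.44 and 9.46 times that of mt-Atp8, with which it shares 43 bases, and TPM of mt-Nd4 was 3.75 ± 0.317 times that of mt-Nd4l. The level of mt-Atp8 was 5251, 6987 and 6479 TPM, so library 1 was the lowest, and its coefficient of variation of 14.3% was far above the 3.06% of mt-Atp6.

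**Figure D1:**
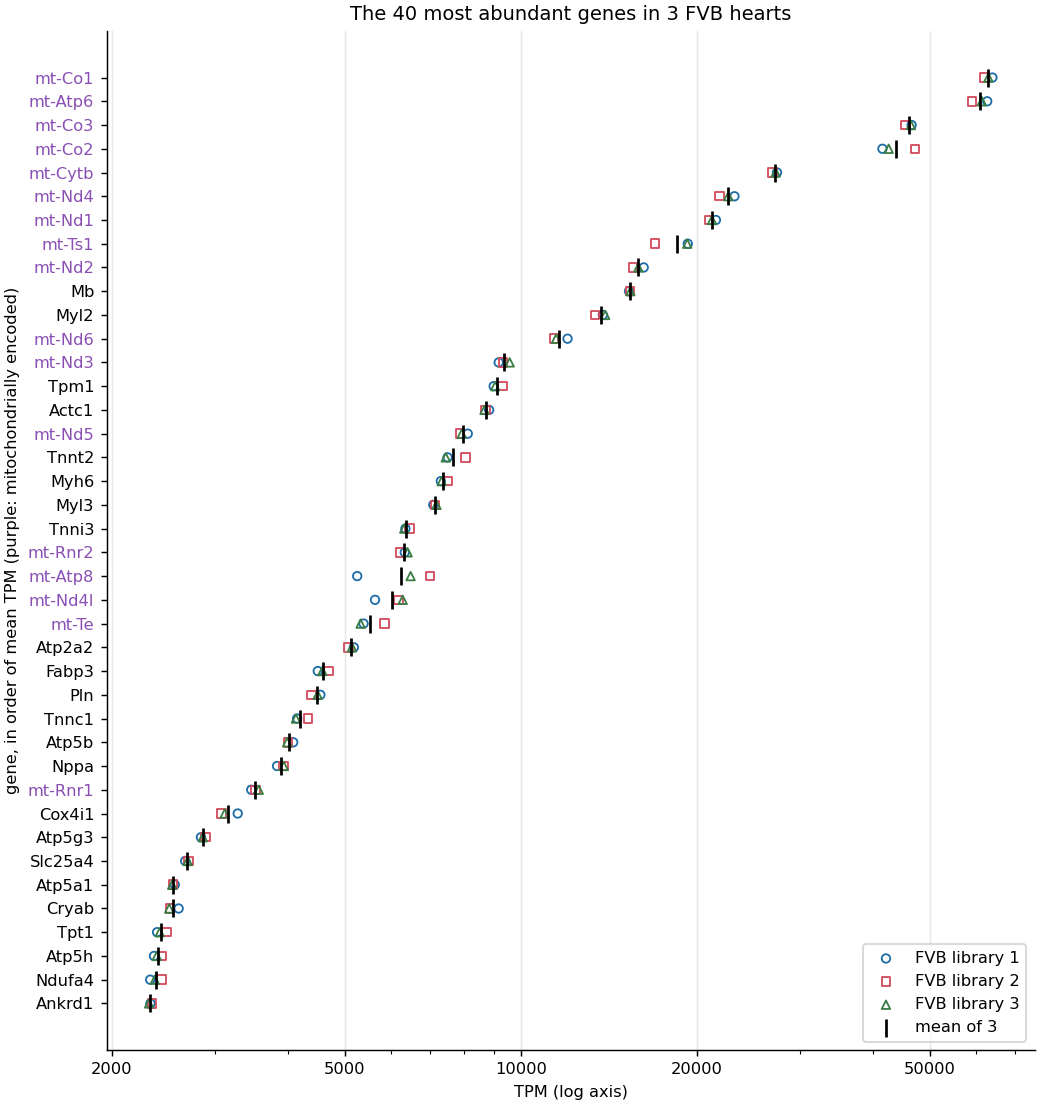
TPM of the 40 most abundant genes on a log axis, with 1 symbol per FVB library and a bar for their mean, in order of the mean; purple names are mitochondrially encoded. The 9 genes above Mb are mitochondrial, and for most genes the 3 symbols lie on top of each other, with mt-Co2 and mt-Atp8 as the visible exceptions.

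Among nuclear genes myoglobin stood first. Mb, which binds and carries oxygen in muscle, was measured at 15301, 15356 and 15383 TPM (15347 ± 41.7) and held 2.48% ± 0.00909 of all nuclear TPM. Its coefficient of variation of 0.272% was the lowest of the 30 most abundant nuclear genes, whose median was 1.51%. The ventricular regulatory light chain Myl2 was next at 13803, 13391 and 13933 TPM and did not overlap with Mb. Sarcomere genes filled the following places. The striated tropomyosin gene Tpm1 had 9105 ± 167 TPM, cardiac actin Actc1 8728 ± 84.2, troponin T Tnnt2 7660 ± 336, alpha-myosin Myh6 7374 ± 113, the essential light chain Myl3 7128 ± 45.0 and troponin I Tnni3 6372 ± 69.4 TPM. Tnnt2 and Myh6 overlapped, because Tnnt2 was at 8047 TPM in library 2 but at 7494 and 7441 TPM in libraries 1 and 3. The calcium pump Atp2a2 was measured at 5182, 5074 and 5145 TPM and its inhibitor phospholamban, Pln, at 4543, 4389 and 4493 TPM, a ratio of 1.15 ± 0.00795 in favour of the pump. The fatty acid binding protein Fabp3, at 4496, 4688 and 4578 TPM, could not be ordered against Pln.

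The lower places of the first 30 nuclear genes went mainly to energy supply and its protection. Troponin C Tnnc1 had 4201 ± 113 TPM, the ATP synthase beta subunit Atp5b 4023 ± 51.4, the atrial natriuretic peptide Nppa 3898 ± 58.2, the oxidase subunit Cox4i1 3160 ± 107 and the subunit c gene Atp5g3 2864 ± 25.9 TPM. Slc25a4 followed with 2690 ± 18.6 TPM. The ATP synthase alpha subunit Atp5a1 at 2548 ± 13.1 and the small heat shock protein Cryab at 2541 ± 52.1 TPM overlapped. The translationally controlled Tpt1 (2428 ± 46.9), the ATP synthase subunit Atp5h (2394 ± 37.8), the oxidase-associated Ndufa4 (2375 ± 54.0) and the ankyrin repeat protein Ankrd1 (2328 ± 12.3 TPM) followed, and each of the first 3 overlapped with the next. Aldolase A, listed as Aldoa_1, had 2110 ± 13.3 TPM and the muscle creatine kinase Ckm 2069 ± 7.17 TPM, without overlap. The 18S ribosomal RNA Rn18s was measured at 1701, 2054 and 2183 TPM, with library 1 the lowest, and its coefficient of variation of 12.6% was the highest of the 30. Atp5g1 (1974 ± 53.4), lipoprotein lipase Lpl (1947 ± 12.98), the ferritin heavy chain Fth1 (1911 ± 18.6) and beta-myosin Myh7 (1845 ± 82.4) closed the list. Of the 29 neighbouring pairs in this order 10 overlapped.

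The transcriptome was steep. The 10 most abundant genes held 33.7%, 33.1% and 33.5% of TPM (33.4% ± 0.323), and the 100 most abundant 58.1% ± 0.131. In each library 40 or 41 genes covered 50% of TPM and 2593 to 2616 genes covered 90%. The 93 genes of 1000 TPM or more held 57.4% of TPM and the 911 genes of 100 TPM or more 80.3%. The 6436 genes of 10 TPM or more held 97.1%.

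Genes were next grouped into 28 functional classes, and the shares of the classes varied little between the hearts. After the mitochondrial genome, sarcomere and Z-disc genes held 8.502%, 8.60% and 8.48% of TPM (8.53% ± 0.0604), and 14 of the 65 listed genes were at 1000 TPM or more. Nuclear-encoded subunits of the respiratory chain held 7.67% ± 0.124 and cytosolic ribosomal proteins 3.12% ± 0.0628. Pyruvate oxidation and the citric acid cycle (1.43% ± 0.00273) and fatty acid and ketone oxidation (1.43% ± 0.00415) could not be ordered. Calcium cycling held 1.39% ± 0.0118, chaperones 1.21% ± 0.00997, glycolysis and glycogen 1.15% ± 0.00606, and fatty acid uptake and storage 0.932% ± 0.00720. Smaller shares went to mitochondrial carriers and porins (0.756%), mitochondrial ribosomal proteins (0.553%), creatine and adenylate kinases (0.451%), natriuretic peptides (0.431%) and the extracellular matrix (0.373%). Classes of signalling and regulation, and haemoglobin, held small shares of TPM. G protein signalling held 0.295%, ion channels with the sodium pump and gap junctions 0.285%, heart transcription factors 0.154%, RAF and MAP kinase signalling 0.142% and haemoglobin 0.0744%. Genes in no class held 25.4% ± 0.0855, led by Tpt1, Fth1 and the cell surface protein Bsg with 1015 ± 14.4 TPM.

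Because TPM divides by length, the same classes weighed differently as reads. Ion channels had 0.585% of reads, heart transcription factors 0.338%, the extracellular matrix 0.731% and calcium cycling 2.80%, each above its share of TPM. Cytosolic ribosomal proteins had 1.35% of reads, respiratory chain subunits 4.24% and natriuretic peptides 0.246%, each below it. Sarcomere genes, which include both short and very long transcripts, had 8.90% of reads, close to their share of TPM. Of the named nuclear and small non-coding RNAs, Rn18s and Mir6236 (462, 543 and 573 TPM) were lowest in library 1, and the share of that class was 0.256%, 0.300% and 0.314%.

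General cell upkeep took shares of similar size. Cytoskeleton and adhesion genes held 0.865%, led by the non-muscle light chain Myl12a (776 ± 0.449 TPM), the tubulin Tuba4a (674 ± 5.72 TPM) and the actin-binding Tmsb4x (513 ± 5.24 TPM). Ubiquitin and proteasome genes held 0.800%, with the polyubiquitin gene Ubb at 517 ± 1.42 TPM, and translation factors 0.770%, led by the initiation factor Eif1 (1009 ± 29.0 TPM). Among the chaperones Hspb7 (1342 ± 17.4 TPM) and Hspa8 (1167 ± 46.8 TPM) came after Cryab. The antioxidant class held 0.595%, with the lipid peroxide reductase Gpx4 at 857 ± 11.8, the mitochondrial superoxide dismutase Sod2 at 502 ± 10.5 and the peroxiredoxin Prdx5 at 475 ± 18.4 TPM. Antigen presentation held 0.217%, led by B2m, the light chain of class I molecules, at 575 ± 8.19 TPM. All 78 mitochondrial ribosomal proteins reached 1 TPM, with Mrpl42 the highest at 354 ± 12.3 TPM. In the smaller regulatory classes the homeodomain protein Hopx had 391 ± 4.82 TPM, the sodium pump regulator Fxyd1 568 ± 22.5, the calcium sensor S100a1 908 ± 34.1 and the matrix protein Mgp 526 ± 12.6 TPM. Of 16368 predicted genes and pseudogene names 803 reached 1 TPM, and the class held 1.06% ± 0.0146.

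**Figure D2:**
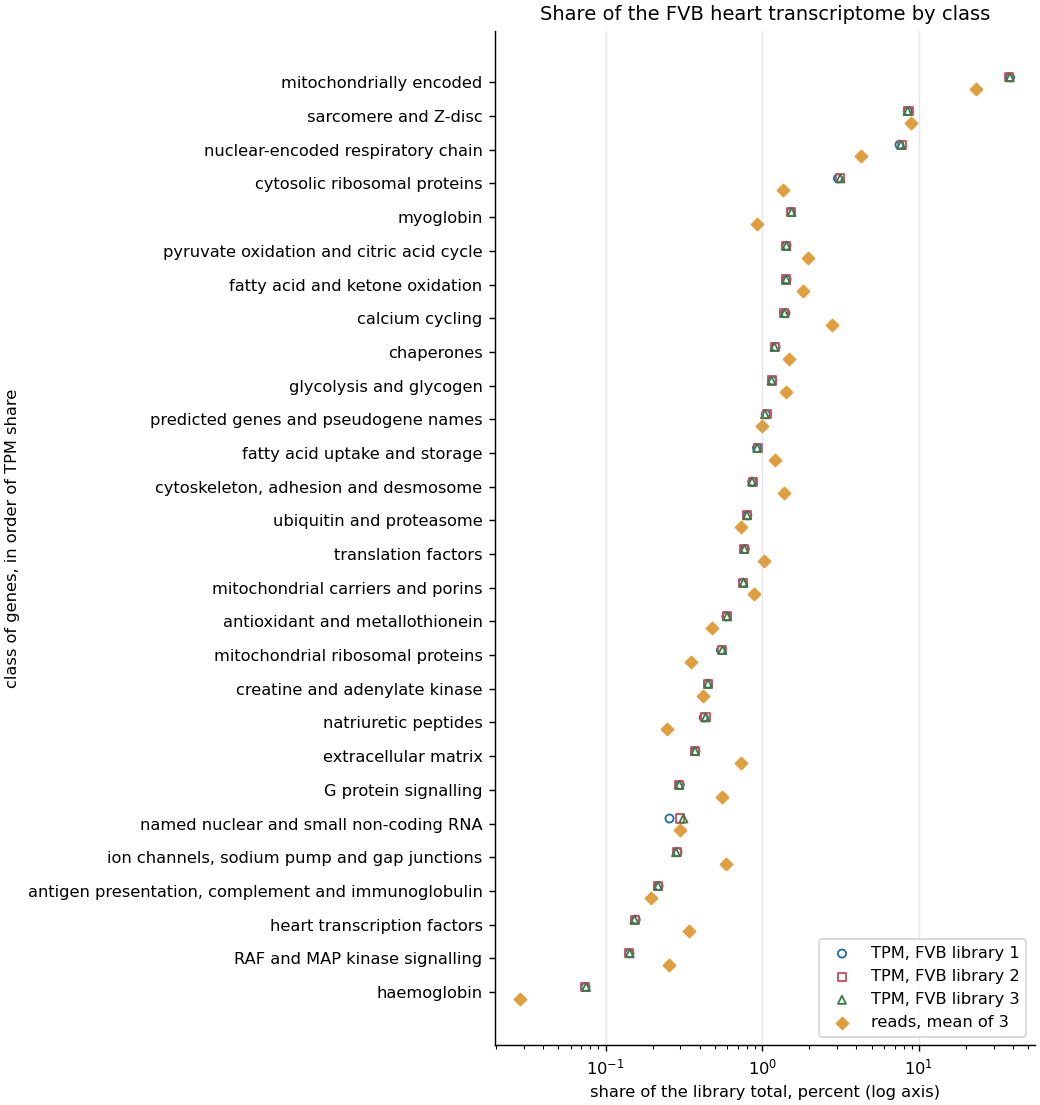
Share of each library held by 28 functional classes, in percent on a log axis; open symbols are the TPM shares of the 3 FVB libraries and diamonds the mean share of reads. The TPM symbols of a class nearly coincide, from 38.1% for mitochondrially encoded genes to 0.0744% for haemoglobin, while the diamonds lie to the right for classes of long transcripts and to the left for classes of short ones.

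Within the respiratory chain the nuclear subunits lay well below the mitochondrial ones. All 37 nuclear subunits of complex I were above 100 TPM, from Ndufa13 at 203 to Ndufb8 at 1159 TPM, a 5.71-fold span with a median of 473 TPM. The 7 mitochondrial subunits of complex I ran from mt-Nd4l at 6032 to mt-Nd4 at 22543 TPM, so the lowest of them was above the highest nuclear one. Succinate dehydrogenase, complex II, is wholly nuclear, and its 4 genes ran from Sdhd at 475 to Sdhb at 797 TPM. The 9 nuclear genes of complex III had a median of 894 TPM, with Uqcrh the highest at 1234 TPM. Complex IV and ATP synthase, with 18 nuclear genes each, had medians of 1241 and 1246 TPM and were led by Cox4i1 and Atp5b. The testis-type oxidase subunit Cox8c, a name chosen after its values were seen, was listed at 0. The nuclear genes of complex I summed to 19762 ± 364 TPM against 94632 ± 1392 for its mitochondrial genes, and those of complex IV to 19468 ± 410 against 152746 ± 1527 TPM.

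Fuel supply was led by genes of fatty acid use. Besides Fabp3 and Lpl, which frees fatty acids from circulating lipoproteins, the fatty acid transporter Cd36 had 1016 ± 23.3 TPM and the adipocyte-type binding protein Fabp4 599 ± 15.5 TPM. In mitochondrial oxidation the trifunctional protein subunit Hadhb had 1838 ± 13.3, Ech1 1263 ± 46.7 and the medium-chain dehydrogenase Acadm 1180 ± 25.4 TPM. The citric acid cycle was led by the dehydrogenases Mdh1 (1524 ± 14.9), Idh2 (1254 ± 7.16) and Mdh2 (1135 ± 10.1), with Mdh1 the cytosolic partner of the malate shuttle. In glycolysis Aldoa_1 was followed by Ldhb (1468 ± 21.5) and Eno3 (1205 ± 4.75). Gapdh, which catalyses the step after aldolase, was listed at 177, 154 and 162 TPM, and Aldoa_1 was 12.9 ± 0.812 times higher. This value is uncertain, since 90.4% of the 50-base windows of the leading Gapdh transcript occur in transcripts of other genes, of which 222 carry at least 1 such window.

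Ribosomal protein genes formed a compact group. Of 86 listed, 84 were at 1 TPM or more with a median of 393 TPM, and 76 were at 100 TPM or more, up to Rps24 with 789 ± 22.9 TPM. Only 3 lay between 1 and 20 TPM, and Rpl10 was among them with 5.68, 6.01 and 13.1 TPM. Its identical copy Rpl10-ps3, whose sequence is shown above, had 498, 499 and 495 TPM, or 60.2 times more, and the pair summed to 504, 505 and 508 TPM. The pair of cytochrome c behaved alike. Cycs was listed at 139 ± 6.80 TPM and Gm10053 at 1090 ± 34.4 TPM, a ratio of 7.85, and their sum was 1229 ± 32.1 TPM. How reads that match several genes were placed is not given in the sources used here, and which gene of each pair was transcribed was not tested. Over the 249 genes examined for such sharing, 29 shared at least 50% of their windows with another gene, 64 at least 10%, and 123 shared none.

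The choice of paralog was then examined in 94 gene families. In 34 of them a single member held 90% or more of the family TPM, in 50 it held 80% or more, and in 85 at least 50%. The median share of the leading member was 82.1%. In 2 families the first and second members overlapped between the hearts. The families differed by role, with all 5 thin filament families above 90% but 1 of 11 excitation families, 4 of 15 signalling families and none of the 3 matrix or the 3 transcription factor families.

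The thin filament was built from single genes. Troponin C came from Tnnc1 with 99.9988% of the family TPM, troponin I from Tnni3 with 99.96%, and troponin T from Tnnt2 with 99.79%. The slow skeletal troponin T gene Tnnt1 had 14.7 TPM and the embryonic and slow skeletal troponin I gene Tnni1 1.00 TPM. Tpm1 held 98.6% ± 0.0290 of the tropomyosins. Of the muscle actins Actc1 held 93.8% ± 0.0514 and skeletal Acta1 4.55% ± 0.0329, at 431, 422 and 417 TPM.

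The thick filament was less uniform. Cardiac myosin binding protein C, Mybpc3, held 99.1% of its family at 1222 ± 3.32 TPM. Myl2 held 89.8% ± 0.386 of the regulatory light chains, followed by the non-muscle Myl12a with 5.09% and the atrial Myl7 with 673 TPM. Myl3 held 82.6% ± 0.154 of the essential light chains and the atrial Myl4 12.1% ± 0.0888, at 1045 TPM. Alpha-myosin Myh6, the fast form that prevails in adult rodent ventricles, held 79.5% to 80.5% of the myosin heavy chains, and Myh7, the slower beta form, 19.98% ± 0.568. The skeletal genes Myh1, Myh2 and Myh4 were each below 0.1 TPM.

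The level of beta-myosin depended on how its transcripts were read. In gene TPM Myh6 was 3.93, 3.91 and 4.17 times Myh7, in reads 8.17, 8.17 and 8.45 times. Of Myh7 TPM, 71.8% ± 0.665 was assigned to a transcript of 595 bases listed as a retained intron, which took 19.8% of its reads, and the coding transcript of 6135 bases took 79.5% of reads. Of Myh6 TPM, 28.4% ± 0.737 was assigned to a transcript of 542 bases with 3.45% of reads. When only transcripts of 5000 bases or more were counted, Myh6 had 5276 ± 59.2 TPM and Myh7 519 ± 12.3 TPM, the ratio was 10.2 ± 0.142, and Myh7 made up 9.04%, 8.99% and 8.83% of the pair. The 245-base run shown above is part of the sequence that both genes share, and its part in these ratios was not tested.

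At the Z-disc and M-band most families had a heart-typical leader. The alpha-actinin Actn2 held 93.9% ± 0.174 at 903 ± 9.56 TPM, the muscle LIM protein Csrp3 94.9% at 1692 ± 19.2 TPM and the myozenin Myoz2 99.96% at 946 TPM. The myomesins, which cross-link myosin in the M-band, were shared, with Myom2 at 536, 515 and 516 TPM and Myom1 at 437, 447 and 439 TPM. Myom2 was higher in each heart and the ranges did not overlap. Fhl2 held 87.4% and Fhl1 12.1% of their family of LIM domain proteins.

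Calcium handling relied on single genes for the large machinery. Atp2a2 held 99.90% of the SERCA pumps, Ryr2 99.2% of the ryanodine receptors at 207 TPM, the sodium-calcium exchanger Slc8a1 99.3% at 87.0 TPM, and the junctophilin Jph2, which joins the reticulum to the surface membrane, 93.7%. Pln held 95.8% ± 0.0497 of the SERCA inhibitors, and the atrial inhibitor sarcolipin, Sln, had 194 TPM. Casq2 held 88.3% of the calsequestrins, which buffer stored calcium. Of the calmodulin kinases Camk2d held 61.6% ± 0.933.

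Ion channels were mostly expressed as mixtures. The L-type calcium channel Cacna1c held 77.7% ± 3.09 at 54.8 TPM. Kcnip2, the accessory subunit of the transient outward current, was the only leader of 90% or more in this role with 98.3%, while the pore gene Kcnd2 held 82.3% ± 0.934 and Kcnd3 16.8% ± 0.703. Of the inward rectifiers Kcnj12 had 13.3, 14.7 and 13.5 TPM and Kcnj2 13.6, 12.8 and 13.01 TPM, so their order changed between hearts. By reads Kcnj2 held 66.0% and Kcnj12 29.2%. The GIRK genes Kcnj3 and Kcnj5 had 43.4 and 34.3 TPM. Of the connexins Gja1 held 88.0% at 246 TPM, with Gjc1 at 14.7, Gja5 at 11.7 and Gja4 at 7.07 TPM.

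In the respiratory chain and energy transfer, the muscle forms of the oxidase subunits, the translocase and the creatine kinases led their families. Of the uncoupling proteins, Ucp2 led with 75.8% ± 0.503 and Ucp3 held 22.8% ± 0.352. Of the oxidase subunits, Cox6a2 held 92.6% ± 0.352 against Cox6a1, Cox8b 83.5% ± 0.721 against Cox8a, and Cox7a1 60.8% ± 1.29 against 27.1% ± 0.612 for Cox7a2. Cox4i1 and Cox6b1, each of which has 1 paralog, held 99.6% and 99.8%. Subunit c of ATP synthase was drawn from all its genes, with Atp5g3 at 54.2% ± 0.429, Atp5g1 at 37.4% ± 0.420 and Atp5g2 at 443 TPM. Atp5g1 and Atp5g2 shared 66.0% and 87.4% of their 50-base windows with other genes. The translocase Slc25a4 held 88.9% ± 0.396 and Slc25a5 11.1% ± 0.393, at 339, 321 and 344 TPM. Slc25a5 shared 46.6% of its 50-base windows with other genes and Slc25a4 0%, and the part of shared reads was not tested. Ckm held 98.1% of the cytosolic and Ckmt2 99.9% of the mitochondrial creatine kinases, with Ckmt2 at 1766 ± 4.29 TPM. The porins were divided between Vdac1 (46.4% ± 0.757), Vdac2 (28.1% ± 0.459) and Vdac3 (410 TPM).

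In glucose use 5 of 11 families had a leader of 90% or more, and the others were mixtures to differing degrees. Aldoa_1 held 99.8% of the aldolases, Pkm all of the pyruvate kinase reads, with Pklr at 0, Eno3 90.3% ± 0.436 of the enolases and Pgam2 90.1% ± 0.127 of the phosphoglycerate mutases. Pgam1, the other mutase, shared 41.5% of its windows of read length with other genes and Pgam2 0%. The part of shared reads in the share of Pgam2 was not tested. The insulin-responsive glucose transporter Slc2a4 held 88.2% ± 0.319 at 203 TPM, and Slc2a1 had 8.91 TPM. Hexokinase was split between Hk2 (57.5% ± 0.455) and Hk1 (36.8% ± 0.560). The lactate dehydrogenase subunits were Ldhb with 73.4% ± 0.245 and Ldha with 26.6%, at 539, 533 and 528 TPM. Pyruvate dehydrogenase kinase, the brake on glucose oxidation, was divided between Pdk2 (48.9% ± 0.429), Pdk4 (29.8% ± 0.404) and Pdk1 (110 TPM). For glycogen phosphorylase the muscle gene Pygm led in TPM with 57.1% ± 0.405 and the brain gene Pygb led in reads with 50.7%.

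In fat use the muscle carnitine palmitoyltransferase Cpt1b held 94.98% ± 0.0375 at 285 TPM, Acacb 93.1% ± 0.582 of the acetyl-CoA carboxylases, and Acsl1 91.1% ± 0.254 of the long-chain acyl-CoA synthetases. Acaca, the other carboxylase, shared 55.4% of its windows of read length with other genes and Acacb 0%. The part of shared reads in the share of Acacb was not tested. Fabp3 held 87.7% ± 0.0668 of the binding proteins. Among the 94 families the leading share was lowest in the perilipins, which coat lipid droplets, with Plin2 at 71.4, 73.5 and 66.3 TPM and Plin3 at 66.0, 65.5 and 67.0 TPM in overlapping ranges, Plin5 at 59.5 ± 0.308 and Plin4 at 54.4 ± 1.44 TPM. By reads Plin4 led with 42.0%. The transcription factors behind these genes were low, with Ppara at 14.8, Ppard at 11.7 and Pparg at 7.09 TPM, the estrogen-related receptor Esrra at 66.9 ± 4.98 TPM and the coactivator Ppargc1a at 29.2 TPM.

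The signalling genes on which the transgenic lines bear were present at modest levels in these controls. Pebp1, which encodes the RAF kinase inhibitor protein RKIP, had 324, 330 and 321 TPM (325 ± 4.54), was the highest of its signalling class, and held 99.97% of its family. Grk2 had 27.1 TPM, 53.1% ± 1.43 of the G protein-coupled receptor kinases, with Grk5 at 8.87 and Grk6 at 8.37 TPM. Map2k2 held 67.2% of the MEK kinases. Of the beta-adrenoceptors Adrb1 had 8.39, 9.75 and 9.14 TPM, 76.4% ± 2.95 of the family. Adra1b and Adra1a had 18.9 and 10.3 TPM, the muscarinic receptor Chrm2 held 98.8% of its family at 59.5 TPM, and the angiotensin receptor Agtr1a 99.9% at 20.9 TPM. Agtr1b was listed at 0 in each library. The beta-arrestins were near the low end, with Arrb2 at 6.59, 7.24 and 6.44 TPM and Arrb1 at 5.92, 6.08 and 6.23 TPM. Arrb2 was above Arrb1 in each heart, but Arrb1 held 79.7% of the reads of the pair. Nppa held 90.5% ± 0.0657 of the natriuretic peptides and Nppb, at 401, 415 and 418 TPM, 9.55% ± 0.0651.

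Among transcription factors Mef2a held 45.2% ± 0.970, Mef2d 37.1% ± 0.266 and Mef2c had 25.1 TPM. Gata4 held 63.5% ± 0.915 and Gata6 36.1% ± 0.802 of the GATA factors. Tead1 held 78.2% of TPM and 94.4% of reads of its family. In translation the elongation factor genes Eef1a1 and Eef1a2, of which the second is the form of muscle and neurons, had 896 ± 2.73 and 788 ± 13.6 TPM, and by reads Eef1a2 led with 50.6%. The muscle-restricted ribosomal protein Rpl3l had 149, 156 and 150 TPM beside 211, 211 and 211 TPM for the general form Rpl3. Eef1a1 and Rpl3 shared 60.6% and 85.6% of their windows of read length with other genes, Eef1a2 and Rpl3l 0%. The part of shared reads in these splits was not tested. Of the small heat shock proteins Cryab held 47.3% ± 0.417 of TPM and Hspb7 24.96% ± 0.0783, but Hspb7 led in reads with 48.7%. Matrix families were shared, with Col3a1 at 44.9% ± 0.578 and Col1a2 at 30.2% ± 0.449 of the fibrillar collagens, Col4a1 at 55.1% ± 0.760 of the basement membrane collagens and Lama2 at 40.1% ± 0.834 of the laminin alpha chains.

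**Figure D3:**
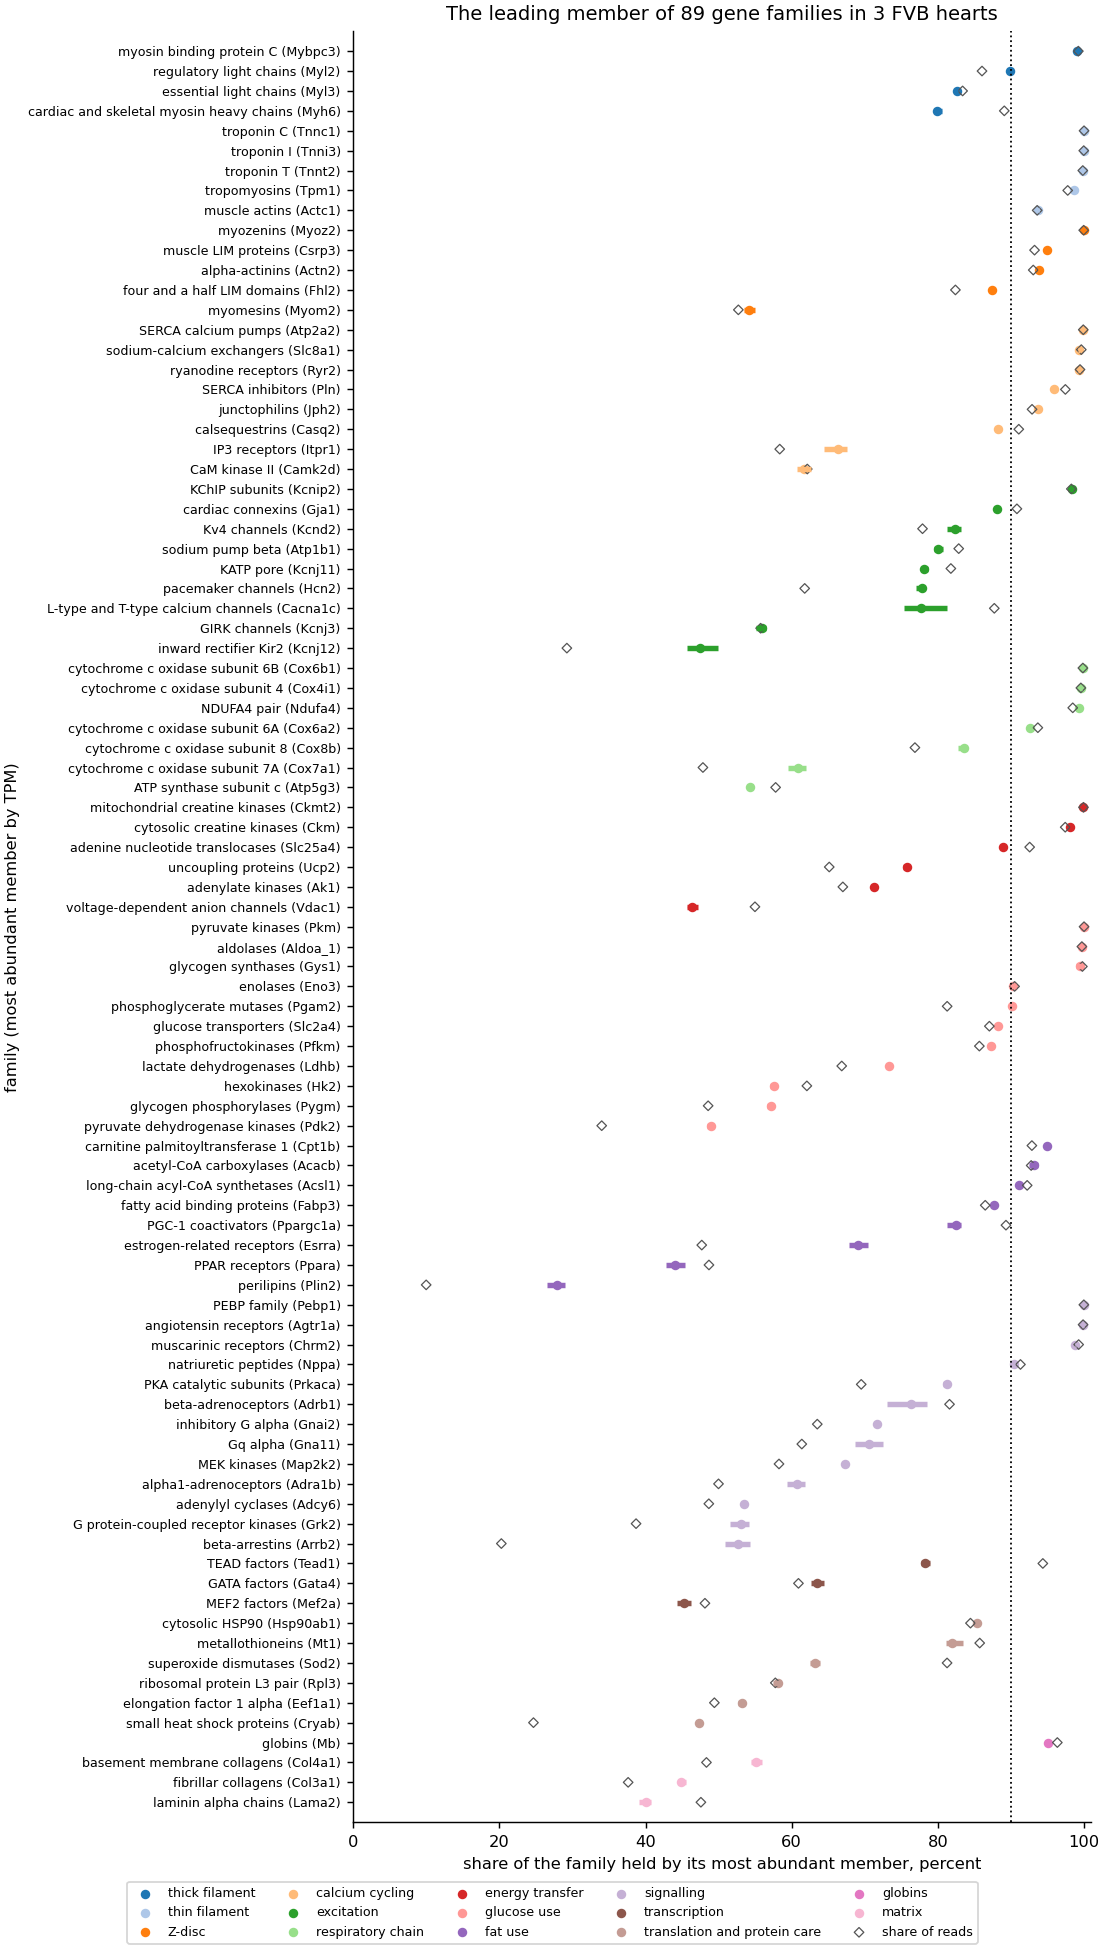
Share of 89 of the 94 gene families held by the most abundant member, in percent, grouped by role; filled points are the mean TPM share of 3 FVB hearts, bars its range, open diamonds the share of reads, and the dotted line stands at 90%. Thin filament families all lie right of the line and matrix and transcription factor families left of it, and the diamond lies far from the point for perilipins, small heat shock proteins and beta-arrestins.

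In 7 families the leading member by TPM was not the leading member by reads, among them the Kir2 channels, glycogen phosphorylases, perilipins, beta-arrestins, elongation factor 1 alpha and small heat shock proteins. When each gene was represented by its most abundant transcript alone, 6 families changed their leader, among them the GATA factors, where Gata6 then held 54.1%, the GIRK channels, where Kcnj5 held 54.0%, the perilipins, where Plin3 held 39.97%, and the beta-arrestins, where Arrb1 held 61.2%. With protein-coding transcripts only, a setting chosen after the data were seen, 4 families changed their leader. Sod1 then held 73.6% of the superoxide dismutases in place of Sod2, Col4a2 44.4% of the basement membrane collagens in place of Col4a1, Plin3 29.4% of the perilipins and Arrb1 50.1% of the beta-arrestins. None of the thick filament, thin filament, Z-disc, respiratory chain or energy transfer families changed its leader in any of these ways.

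At the level of transcripts, 5932 genes with more than 1 listed transcript and a mean of 10 TPM or more were examined, and 2120 of them (35.7%) had a transcript that held 90% or more of the gene TPM. The most abundant transcript was listed as protein coding in 5748 of 6328 genes. Several sarcomere and calcium genes had such a transcript. The coding transcript of Actc1 with 1473 bases held 99.99%, that of Tnnc1 with 721 bases 98.7% ± 0.171, and that of Atp2a2 with 3984 bases 95.1% ± 0.226. The 9355-base transcript of the insulin receptor Insr 96.1% ± 0.804. Pebp1 had 99.8% to 100% in its 1240-base transcript. Ttn encodes titin, the giant spring of the sarcomere, and had 70.4% ± 0.231 of its TPM and 92.7% of its reads in a transcript of 81999 bases and 191 exons, and a transcript of 16891 bases held 20.99% ± 0.483.

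Other genes were divided between coding transcripts. Mb had 52.7% ± 1.16 of TPM in a 765-base and 45.5% ± 0.793 in a 1058-base transcript, and by reads the second led with 53.2%. Tpm1 had 78.4%, 71.3% and 76.5% in a 1208-base transcript and 20.8%, 27.99% and 22.8% in a 962-base transcript, so library 2 differed in opposite directions. Pkm was split into 65.7% ± 1.40 and 33.8% ± 1.21, and Kcnip2 into 37.4% ± 1.39, 30.1% ± 2.71 and 25.9% ± 3.69 between 3 coding transcripts. Ldb3, a Z-disc adaptor, had 64.6% ± 0.574 of TPM in its 1586-base and 29.5% ± 0.280 in its 5119-base transcript, of which the longer had 57.2% of reads. Long transcripts also weighed more by reads in Ryr2, whose 16814-base transcript had 51.5% ± 2.00 of TPM and 79.7% of reads, and in Cacna1c, whose 13162-base transcript had 31.1% ± 1.15 of TPM and 50.9% of reads. For Slc8a1 a 3339-base transcript led in TPM with 55.9% ± 0.390 and an 18464-base transcript led in reads with 73.1%.

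Among the 30 most abundant nuclear genes, 5 were led by a transcript not listed as protein coding, namely Myl2, Cox4i1, Tpt1, Myh7 and Rn18s. A processed transcript of 467 bases held 59.1%, 45.7% and 52.0% of Myl2 TPM, and the coding transcript of 662 bases held 36.0%, 52.3% and 41.1%. The coding transcript was thus the higher of the pair in library 2 only, although Myl2 as a gene varied by 2.06% between the hearts. For Cox4i1 a retained-intron transcript of 578 bases held 50.0% ± 1.41, while the 745-base coding transcript was listed with 23.01%, 39.5% and 32.9%. A processed transcript of 661 bases held 90.9% ± 1.32 of Tpt1. Tnni3 and Cryab had 45.8% ± 1.57 and 38.6% ± 5.43 of TPM in retained-intron transcripts of 451 and 585 bases. Of Grk2, 59.5% ± 4.07 was in its 3182-base coding transcript. Lmna, which encodes the nuclear lamins A and C, was split between coding transcripts of 1536 and 2021 bases with 35.5% ± 4.24 and 33.9% ± 4.75. Fibronectin, Fn1, was led by a retained-intron transcript of 4022 bases with 29.6% ± 4.83, and its 7694-base coding transcript was listed with 5.24%, 20.98% and 29.4%. Whether the short transcript models stand for separate RNAs was not tested.

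Transcript levels repeated less well than gene levels. In 473 genes that had a pair of transcripts with at least 1000 reads each, the median coefficient of variation was 1.83% for the gene, 4.05% for its first and 7.28% for its second transcript, beside 1.22% and 1.65% from counting alone for the gene and the first transcript. The first transcript varied more than the gene in 383 of them.

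**Figure D4:**
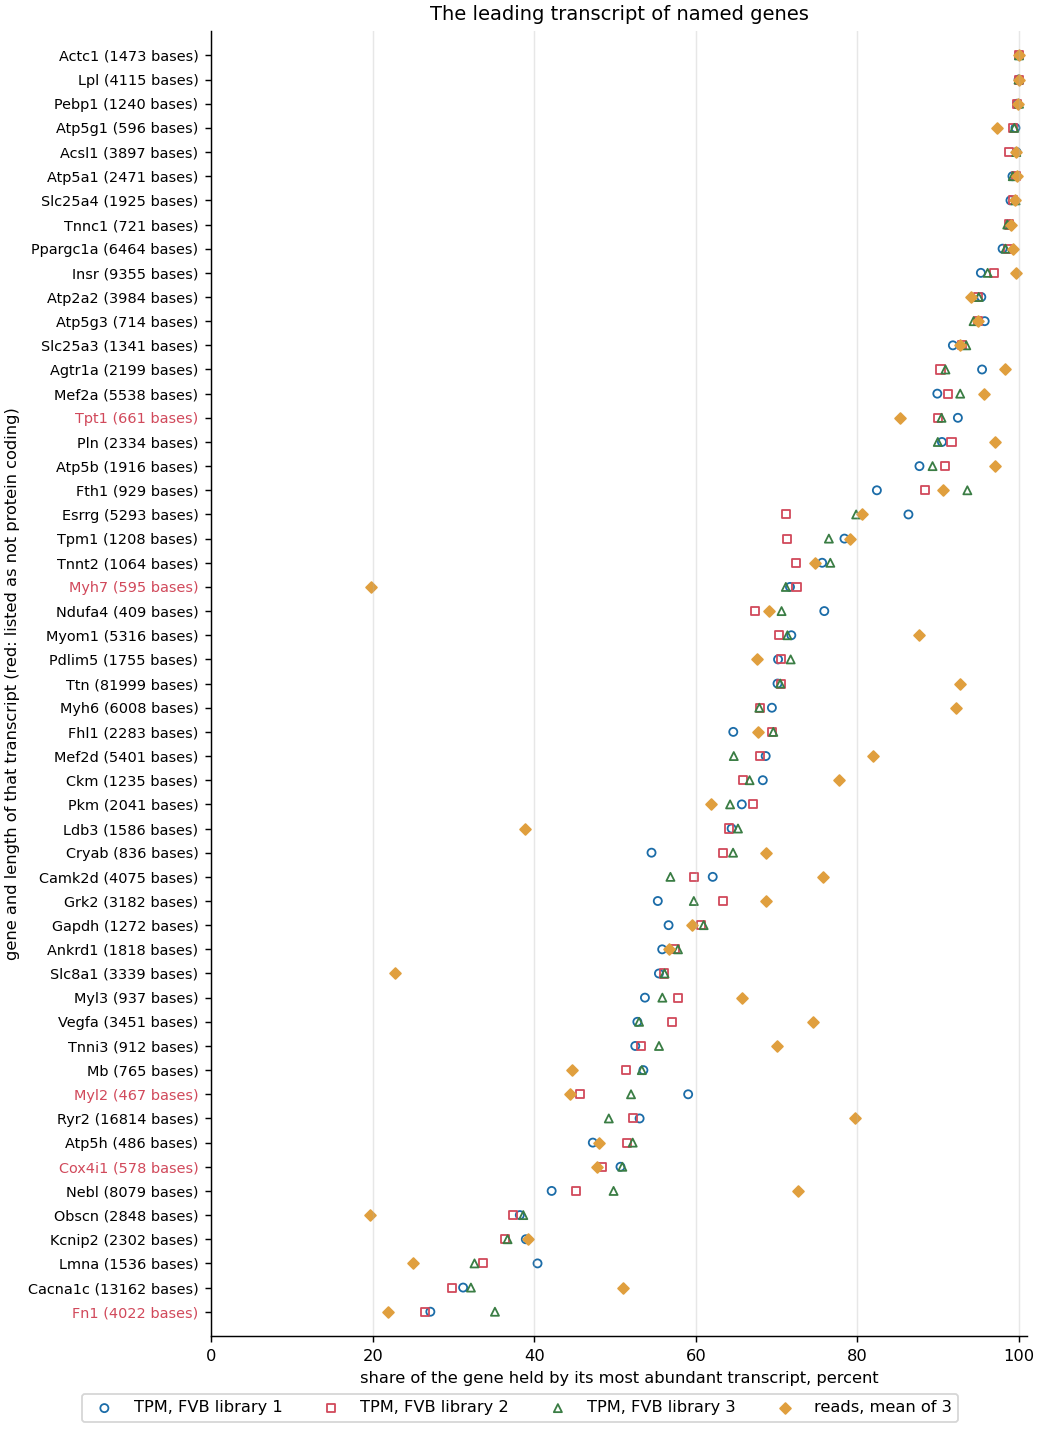
Share of a gene held by its most abundant transcript, in percent, for the named genes with more than 1 listed transcript; open symbols are the TPM shares of the 3 FVB libraries, diamonds the mean share of reads, and red names mark transcripts not listed as protein coding. Shares run from 99.99% for Actc1 down to 29.6% for Fn1, and the symbols of Myl2, Esrrg and Cryab spread visibly between libraries.

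The hearts held the markers of heart muscle and of many other cell types. The 8 cardiomyocyte markers were all at 1 TPM or more and summed to between 39791 and 40844 TPM. Ventricular and atrial markers were both present. The 4 ventricular genes summed to between 20538 and 21124 TPM, led by Myl2 and Myl3, and the transcription factors Irx4 and Hey2 had 14.8 and 3.22 TPM. The 7 atrial genes summed to between 5902 and 6041 TPM, led by Nppa, Myl4 and Myl7, and the atrial ligand Bmp10 had 68.2 TPM. Conduction system genes were low, with Gja5 at 11.7, Tbx3 at 4.36 and Cntn2 at 3.79 TPM and Isl1 at 5, 6 and 8 reads.

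Non-muscle cells were also visible. The 8 fibroblast genes summed to between 1841 and 1863 TPM, led by gelsolin, Gsn, at 889 ± 4.20 and decorin, Dcn, at 686 ± 14.5 TPM, while the more restricted Tcf21 and Pdgfra had 13.6 and 12.3 TPM. Of the activated fibroblast genes Postn had 43.6 and Cthrc1 0.827 TPM. The 10 endothelial genes summed to between 549 and 553 TPM, led by Ly6c1, Pecam1 and Egfl7 at 181, 71.5 and 61.6 TPM. The 7 pericyte genes summed to between 318 and 331 TPM, led by Rgs5, Abcc9 and Kcnj8 at 169, 97.6 and 18.4 TPM, of which Abcc9 also belongs to the potassium channel complex of muscle cells. Smooth muscle actin Acta2 had 156 TPM, and the macrophage genes C1qa, Csf1r and F13a1 had 58.8, 19.1 and 17.7 TPM. The blood genes Hbb-bs, Hba-a1 and Hba-a2 had 317 ± 9.67, 267 ± 1.44 and 129 ± 3.03 TPM. Hbb-bs, Hba-a1 and Hba-a2 shared 65.8%, 67.5% and 86.9% of their 50-base windows with other genes, and the part of shared reads in the split was not tested. Lymphatic genes, led by Prox1 (17.7 TPM), summed to between 30.2 and 31.0 TPM, and those of mesothelium and epicardium, led by Upk3b (10.4 TPM), to between 24.04 and 26.3 TPM.

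Markers of several other cell types and tissues were near or at 0. None of the 6 lymphocyte genes reached 1 TPM, with Cd3e at 15, 17 and 17 reads. None of the 7 skeletal muscle genes reached 1 TPM, with Tnnt3 at 11, 12 and 19 reads and Myh2 at 0, 2 and 1. The airway genes Scgb1a1, Scgb3a2 and Sftpc had 0 reads in every library, which allows up to 0.112 RPM in the shallowest library, and Sftpb had 2, 1 and 0 reads. White adipocyte genes were low, with Cfd at 8.08 and Adipoq at 3.04 TPM, and brown adipocyte Ucp1 had 1.18 TPM. Cidea, which is listed with brown adipocytes, had 23.8 TPM. Nerve genes were scarce, with Dbh at 3.63, Npy at 1.06 and Th at 0.114 TPM in the sympathetic neuron list. The liver genes Alb, Ttr and Apoa1 had 1.10, 0.703 and 0.209 TPM. Dividing-cell genes were near 1 TPM, with Top2a at 1.49 and Mki67 at 0.804 TPM.

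**Figure D5:**
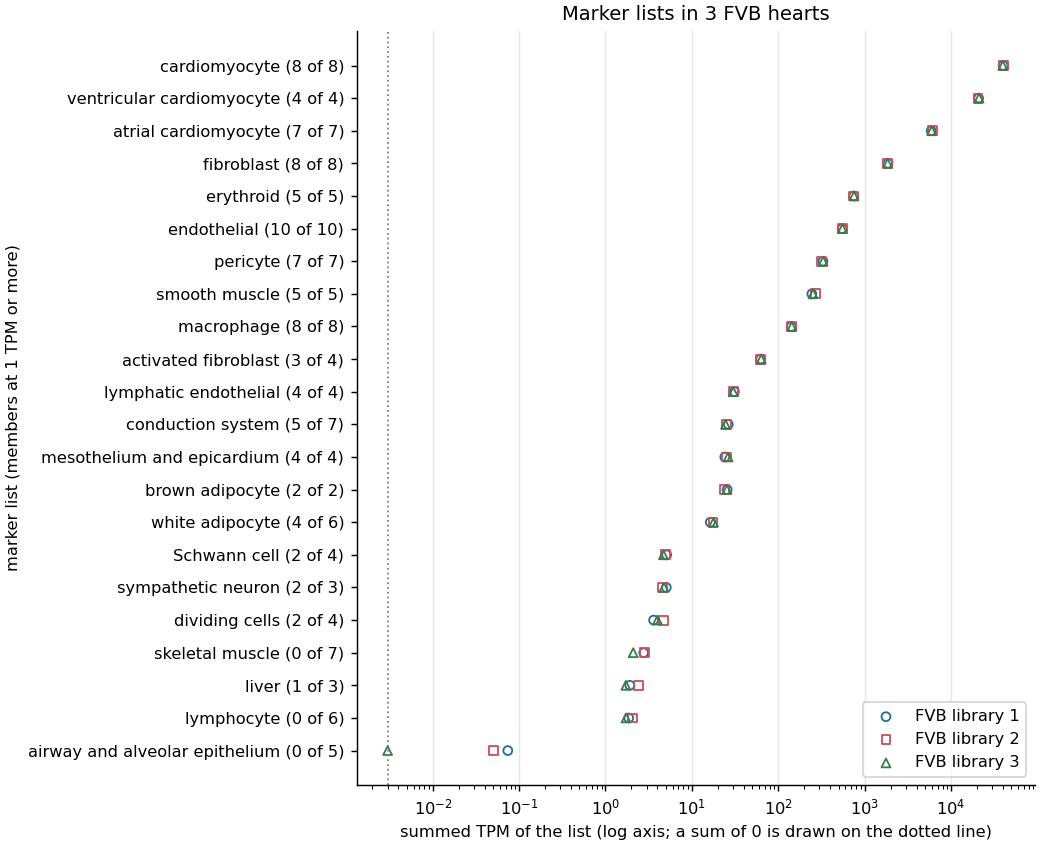
Summed TPM of 22 marker lists on a log axis, with 1 symbol per FVB library and, in brackets, how many members reached 1 TPM; a sum of 0 is drawn on the dotted line. The lists span from 39791 to 40844 TPM for cardiomyocytes down to less than 0.1 TPM for airway and alveolar epithelium.

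Differences between the hearts were small for nearly all genes. Among the 10948 genes with a mean of 100 reads or more, the highest library was a median of 1.09-fold above the lowest, and 90% of genes stayed below 1.25-fold. A range of 2-fold or more was found in 18 genes (0.164%), and of 1.5-fold or more in 173. With the minimum of 100 reads applied to the libraries kept, 7, 11 and 10 genes had a 2-fold range without library 1, 2 and 3. Genes of 10000 reads or more had a median coefficient of variation of 1.40% in TPM, and the variance of their reads was a median of 2.70 times that of counting alone, so the libraries differed by more than counting error. For genes of 100 to 300 reads the median of that ratio was 0.894 and its mean 1.49. With 3 libraries the median of such a ratio lies below its mean under counting error alone. The value of 0.894 is thus not read as variance below counting error.

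The widest range belonged to Pde2a, a cGMP-stimulated phosphodiesterase, with 0.463, 2.70 and 4.42 TPM from 29, 172 and 316 reads, a 9.54-fold span. Mfsd3 had 8.66, 5.98 and 2.80 TPM and Kbtbd11 2.21, 0.735 and 1.38 TPM, although the reads of Kbtbd11 were 121, 99 and 107. Of the others in the first 10, Nckap5 and Slit2 also had similar reads in the libraries (211, 183 and 204 for Nckap5, and 173, 198 and 189 for Slit2) but TPM ranges of 2.39-fold and 2.34-fold. A630072M18Rik (2.61-fold), Gm37939 (2.56-fold) and Gm20412 (2.36-fold) have a single listed transcript. Gm20412 had 324, 156 and 311 reads. Gm20721, with 1133, 1103 and 487 reads, lies on the minus strand within the bounds of Gnas, which encodes the stimulatory G protein and had 736, 707 and 729 TPM. Reads of this pair cannot be told apart where strand was not used. Rpl10 alone had a range of 2.31-fold, although its sum with its identical copy ran only from 504 to 508 TPM. When RPM were compared in place of TPM, 9 genes had a 2-fold range, of which 7 were among the 18.

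The libraries also differed slightly by transcript length. Nuclear genes whose transcripts averaged under 500 bases were a median of 0.06 lower on the log2 scale in library 1. In library 2 they were 0.05 higher, each against the mean of the hearts. Nuclear genes of 4000 bases or more showed medians of 0.01 and -0.01 in these libraries. Mitochondrially encoded genes were not in these medians. Cox7a1, at 1419, 1651 and 1569 TPM, and mt-Atp8 are under 500 bases and were lowest in library 1. So was Cox6c, of 505 bases on average, at 1497, 1671 and 1611 TPM. Not all short genes followed this order. The 69-base mt-Ts1 was highest in library 1 and lowest in library 2, at 19281, 16939 and 19241 TPM. The part of length in these differences was not tested.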

How the data were processed

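RNA from frozen hearts was sequenced as single reads of 50 bases by random-hexamer priming. For each library the authors deposited, per transcript, the read count without normalization and the TPM value; the submitters' processing notes name GRCm39, and the aligner, the counting program and the placing of shared reads are not given in the sources used here. The deposited TPM equalled reads over listed length, rescaled, to within 5.5e-06. Coordinates, lengths and biotypes are as deposited.

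Reads and TPM were summed by gene name, and 1671 names with a number suffix (such as Aldoa_1) were matched to lists by their stem. No group comparison and no test was made, and no value column was left unmapped (0). Neighbours in an order were called different only where their 3 values did not overlap. The genes named are the 30 most abundant, the 3 leaders of each class, family members with at least 5%, the 3 leaders of each marker list, members of foreign tissue lists at 0, a list of 35 genes for transcripts, and the 10 widest ranges. Nuclear ranks 15 to 30, single minor paralogs, subunits, mitochondrial genes and pseudogene partners outside this rule were chosen after their values were seen. Members and lists were chosen with earlier results of these data known. Some genes of the lists are not reported here.

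Coding sequences and 50-base windows came from GENCODE M21 (build GRCm38), matched by transcript identifier, so only coding positions are given; 249 of 250 genes matched. The range rule (2-fold, mean of at least 100 reads) was run on simulated gene counts with planted changes. These had counting error alone and a fixed length per gene, so reads that move between transcripts of a gene were not covered. Alternatives were transcripts of at least 200 bases, no mitochondrial genes, reads in place of TPM, the leading transcript, protein-coding transcripts, other thresholds, each library left out, and scaling of reads by TMM (edgeR 4.0.16) or size factors (DESeq2 1.42.0) in R 4.3.3. Python 3.11.15 and pandas 2.3.3 were used.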

Additional observations from a re-analysis of the deposited data

How the results depend on the processing

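The shares of TPM moved with the unit and with the transcripts counted, by more than the spread between hearts. With transcripts of at least 200 bases, the 10 most abundant genes held 34.0%, mitochondrially encoded genes 36.3%, sarcomere genes 8.79%, nuclear respiratory chain genes 7.91% and ribosomal protein genes 3.22%. As shares of reads these were 23.8%, 23.1%, 8.90%, 4.24% and 1.35%. With only the most abundant transcript of each gene they were 38.3%, 44.1%, 7.12%, 7.44% and 2.90%, and with protein-coding transcripts 38.2%, 39.8%, 8.27%, 6.82% and 2.79%. Without mitochondrial genes, the 10 most abundant held 13.7%, sarcomere genes 13.8%, respiratory chain genes 12.4% and ribosomal protein genes 5.03%. Genes with 1 transcript at 90% numbered 4891 of 14418 with no minimum TPM and 339 of 815 at 100 TPM or more, against 2120 of 5932. Genes with a 2-fold range numbered 510 by the leading transcript, 9 each by RPM, TMM or size factors, 122 with at least 30 reads, 2 with at least 300 reads and 173 at 1.5-fold, against 18. Without library 1, 2 and 3 such genes numbered 7, 11 and 10. The range of a gene over 2 libraries cannot exceed that over 3. The minimum of reads was applied anew to the libraries kept, so genes outside the 18 could enter these counts. With each library left out, the counts other than those of ranges stayed within 1.5 times. The mean of 2 of 3 values always lies within 1 s.d. of the mean of all 3. The shares could therefore not leave the spread between hearts in this setting, and no stability is read from it. Counts of families with a 90% leader ran from 33 to 37 over the alternatives other than the threshold, of which the protein-coding one was chosen after the data were seen. Apart from construction, the cause of each shift was not tested. No paired analysis was possible because no groups were compared.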
